A study of Mus musculus with 6 samples.

Results

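This report describes 7 genes of B cells and their antibodies (Ighm, Ighd, Igkc, Jchain, Cd79a, Cd79b and Ms4a1) among the 54093 genes of an RNA-seq table of the mouse right atrium (RA). The genes were chosen by name, with their sham and volume overload values already in view, so their difference between the groups is given as a description, without a test. Wild-type C57BL/6 pups, male or female, had an operation at postnatal day 7 (P7) and their RAs were taken at P21. In the volume overload (VO) group a needle was passed from the abdominal aorta into the inferior vena cava to make an aortocaval fistula, a shunt that returns arterial blood to the right heart. The sham group was operated on without the fistula. Each group had 3 libraries of whole RA tissue, and the labels do not say whether each library came from 1 animal or from several, so that a p-value here measures only the spread between these libraries.

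A B cell carries on its surface an antibody made of heavy and light chains, held with the signalling pair CD79A and CD79B. Naive B cells make IgM and IgD from the same heavy chain locus, and plasma cells, their secreting descendants, release antibody in bulk and join IgM and IgA into polymers with the J chain. Each B cell uses 1 V segment per chain in front of the constant region, and its daughter cells keep that choice. In the heart, B cells are known as a minor population, many of them held within small vessels.

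The libraries held 15963082 to 17237903 fragments on genes. An FPKM (fragments per kilobase of gene length, scaled between libraries) of 1 in a gene of 1 kb stood for 15.6 to 18.1 fragments. The scaling did not follow the totals alone. An FPKM of 1 stood for 18.1 fragments in VO 1, with 16852482 in total, and for 17.2 in sham 2, with 17237903. The atrial gene Myl7, a myosin light chain, had 2586 to 8501 FPKM. Of the ventricular genes, the transcription factor gene Irx4 did not pass 0.259, but Myl2 and Myl3 were higher. Myl2 had 60.4, 2.02 and 56.0 FPKM in sham 1 to 3, and 6.95, 1.54 and 20.6 in VO 1 to 3. Myl3 had 117 to 246 in sham and 83.8 to 121 in VO. The part of ventricular tissue in these libraries was not tested. VO 1 was the highest library for 26.2% of all genes with a mean of at least 0.1 FPKM. All 7 pan-leucocyte genes (Arhgdib, Laptm5, Cd53, Cd52 and 3 more) were highest there too. Their summed level was 3.31 times the sham mean in VO 1, against 1.07 in VO 2 and 1.35 in VO 3. Ratios of group means are therefore given without VO 1 too. In whole tissue, fewer cells of a type and less RNA per cell cannot be told apart.

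B cell clones can differ in the V segments they use, but different clones can also use the same V segment. The 3 most abundant segments of the heavy chain and of kappa are shown by their last 120 coding bases (GENCODE vM21, build GRCm38). Capitals mark the bases that differ from the most similar other V segment. Ighv3-6 lies at chr12:114288152-114288271 on the minus strand, Ighv2-9-1 at chr12:113769850-113769969 on the minus strand and Ighv8-8 at chr12:115294062-115294181 on the minus strand. Igkv16-104 lies at chr6:68425953-68426072 on the plus strand, Igkv1-110 at chr6:68271148-68271267 on the plus strand and Igkv8-30 at chr6:70117061-70117180 on the minus strand.
Ighv3-6: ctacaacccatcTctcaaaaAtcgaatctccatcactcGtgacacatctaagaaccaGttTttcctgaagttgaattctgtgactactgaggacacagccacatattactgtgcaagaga
Ighv2-9-1: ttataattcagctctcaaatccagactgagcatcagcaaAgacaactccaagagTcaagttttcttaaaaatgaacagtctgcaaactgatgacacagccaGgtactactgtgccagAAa
Ighv8-8: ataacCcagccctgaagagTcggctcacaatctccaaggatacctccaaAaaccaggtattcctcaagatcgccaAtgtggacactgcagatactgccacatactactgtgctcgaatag
Igkv16-104: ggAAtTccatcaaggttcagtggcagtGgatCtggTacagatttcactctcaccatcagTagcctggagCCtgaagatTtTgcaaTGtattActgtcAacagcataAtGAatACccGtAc
Igkv1-110: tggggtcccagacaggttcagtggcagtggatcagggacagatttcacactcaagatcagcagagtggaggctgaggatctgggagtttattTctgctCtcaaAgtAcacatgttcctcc
Igkv8-30: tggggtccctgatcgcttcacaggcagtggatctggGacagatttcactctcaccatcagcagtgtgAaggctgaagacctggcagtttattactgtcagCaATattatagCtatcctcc
Igkv16-104 was the most distinct of them, with 22 bases that differ from its nearest segment (81.7% identity). The other 5 were 95.0% to 96.7% identical to their nearest segment, so that fragments of these segments could have been assigned to a close copy, and their counts are uncertain to that extent.

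The constant region genes of IgM and the kappa light chain were high in VO 1 and VO 3 and at the level of sham in VO 2. Ighm (ENSMUSG00000076617, chromosome 12, 113418558 to 113422730, minus strand), the constant region of the IgM heavy chain, had 5.04, 3.35 and 2.90 FPKM in sham 1 to 3, and 32.2, 2.37 and 18.6 in VO 1 to 3. VO 1 and VO 3 lay above every sham library and VO 2 lay below every one, so the groups overlapped. The means were 3.76 ± 1.13 FPKM in sham and 17.7 ± 14.9 in VO (SD, n = 3 each), a ratio of 4.71, which was 2.79 without VO 1. On the log2 scale of FPKM + 0.1 the VO mean was 1.60 higher, with a standard error of 0.87.

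Igkc (ENSMUSG00000076609, chromosome 6, 70726435 to 70726966, plus strand), the constant region of the kappa light chain, had 5.20, 4.58 and 1.85 FPKM in the sham libraries and 42.8, 3.80 and 22.2 in the VO libraries. Here too VO 1 and VO 3 were high, whereas VO 2 lay within the sham range. The means were 3.87 ± 1.78 FPKM in sham and 22.9 ± 19.5 in VO (SD, n = 3 each), a ratio of 5.92, or 3.35 without VO 1. The log2 difference was 2.09 with a standard error of 0.85. The gene lies within Gm30211, a noncoding gene annotated on the same strand with almost no fragments of its own, so reads that fit both are uncertain. Heavy and light chain were high in the same libraries, and Igkc per Ighm was 0.637 to 1.37 in sham and 1.19 to 1.60 in VO.

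Jchain (ENSMUSG00000067149, chromosome 5, 88519809 to 88527891, minus strand), which encodes the joining chain of polymeric IgM and IgA, had only 1, 0 and 3 fragments in the sham libraries (0.0255, 0 and 0.0732 FPKM). The VO libraries held 123, 7 and 52 fragments (2.69, 0.171 and 1.26 FPKM). All VO libraries lay above all sham libraries, in the same order of VO libraries as Ighm and Igkc. The means were 0.0329 ± 0.0371 FPKM in sham and 1.37 ± 1.27 in VO (SD, n = 3 each). Per fragment sequenced, the 182 VO fragments against 4 in sham gave a ratio of 46.8 (exact 95% interval 18.0 to 174), where the interval, like all intervals here, covers counting error only. VO 2 alone gave 5.54 (1.41 to 25.8), from 7 fragments. In FPKM the ratio of means was 41.7, and 21.7 without VO 1. Jchain stood at 8.36%, 7.19% and 6.75% of the Ighm level in VO 1 to 3, against 0.506%, 0% and 2.53% in sham 1 to 3.

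**Figure D1:**
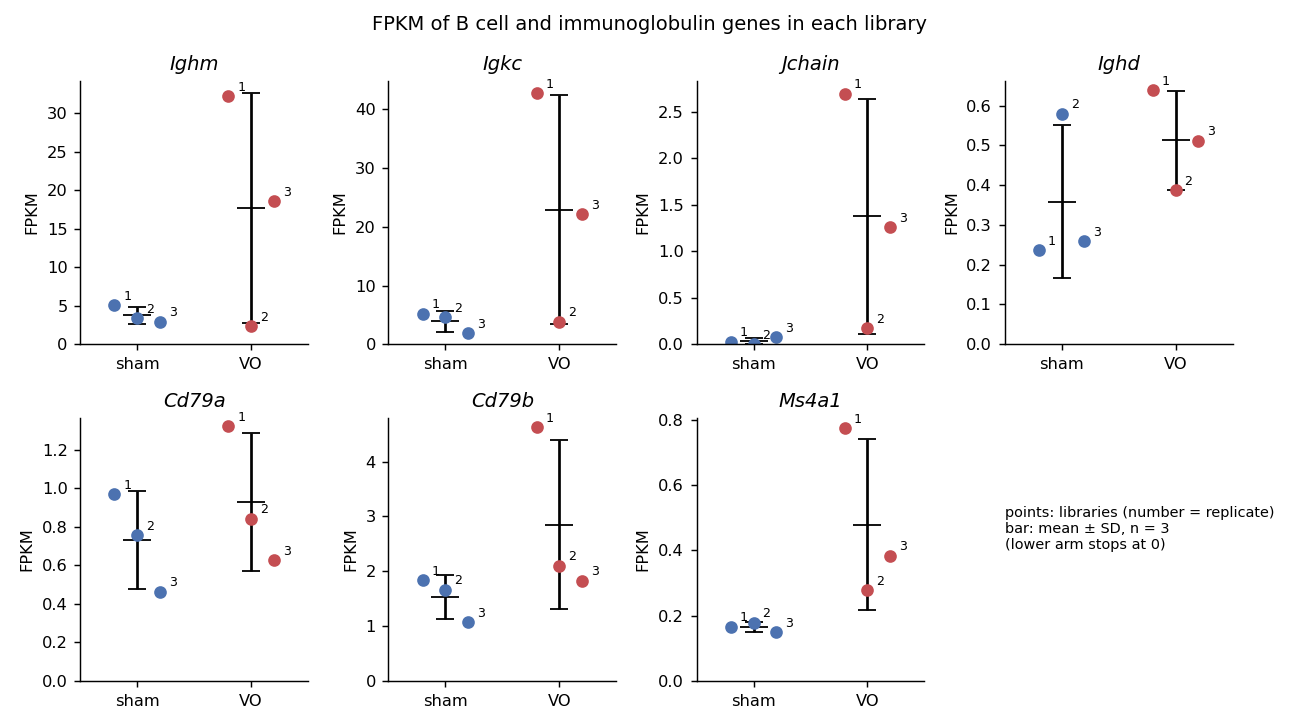
FPKM of each of the 7 genes on a linear axis from 0, with 1 numbered point per library and bars at the group mean ± SD (n = 3, lower arm stopped at 0). Ighm and Igkc are high in VO 1 (32.2 and 42.8 FPKM) and VO 3 (18.6 and 22.2), whereas VO 2 sits with the sham libraries, and the groups of Cd79a and Ighd overlap.

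The genes of the B cell surface differed by smaller ratios. Ighd (ENSMUSG00000104213, chromosome 12, 113406604 to 113416324, minus strand), the constant region of IgD, had 0.237, 0.580 and 0.259 FPKM in sham and 0.638, 0.387 and 0.512 in VO. The groups overlapped, since sham 2 was above VO 2 and VO 3. The means of 0.358 ± 0.192 and 0.513 ± 0.125 FPKM (SD, n = 3 each) differed by 0.47 on the log2 scale, with a standard error of 0.39, on 7 to 22 fragments per library. Since Ighm varied far more, Ighd per Ighm was lowest in VO 1 and VO 3, at 1.98% and 2.75%, against 16.3% in VO 2 and 4.69% to 17.3% in sham.

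Cd79a (ENSMUSG00000003379, chromosome 7, 24897381 to 24902197, plus strand), one chain of the signalling pair of the B cell receptor, had 0.971, 0.756 and 0.464 FPKM in sham and 1.32, 0.842 and 0.626 in VO. VO 1 was the highest library, and VO 2 and VO 3 lay within the sham range. The log2 difference was 0.30 with a standard error of 0.36, and the ratio of means, 1.27, was 1.01 without VO 1.

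Cd79b (ENSMUSG00000040592, chromosome 11, 106311341 to 106314762, minus strand), the other chain of the pair, had 1.84, 1.66 and 1.07 FPKM in sham and 4.62, 2.10 and 1.83 in VO. Only VO 1 stood clearly apart, and VO 3 was just below sham 1. The means were 1.53 ± 0.402 and 2.85 ± 1.54 FPKM (SD, n = 3 each), with a log2 difference of 0.77 and a standard error of 0.37, and their ratio of 1.87 was 1.29 without VO 1.

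Ms4a1 (ENSMUSG00000024673, chromosome 19, 11249675 to 11266241, minus strand), which encodes CD20, a surface protein of B cells that plasma cells lose, had 0.166, 0.178 and 0.149 FPKM in sham and 0.775, 0.278 and 0.383 in VO. It was low throughout, at 15 to 19 fragments per sham library, but the groups did not overlap. The means were 0.164 ± 0.0147 and 0.479 ± 0.262 FPKM (SD, n = 3 each), a ratio of 2.91, or 2.01 without VO 1. The log2 difference was 1.04 with a standard error of 0.42.

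All 7 genes had a mean of at least 0.1 FPKM over the 6 libraries, and Ighm, Igkc and Cd79b had a mean of at least 1. All 7 were highest in VO 1, as were 26.2% of all genes at a mean of at least 0.1. In 4 of the 7 (Ighm, Igkc, Jchain and Ms4a1) VO 3 was above every sham library, as in 28.9% of all such genes. In 2 of the 7, Jchain and Ms4a1, all VO libraries were above all sham libraries, against 8.04% of all such genes. These shares of all genes are a background only, since the 7 genes were picked on the same values.

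**Figure D2:**
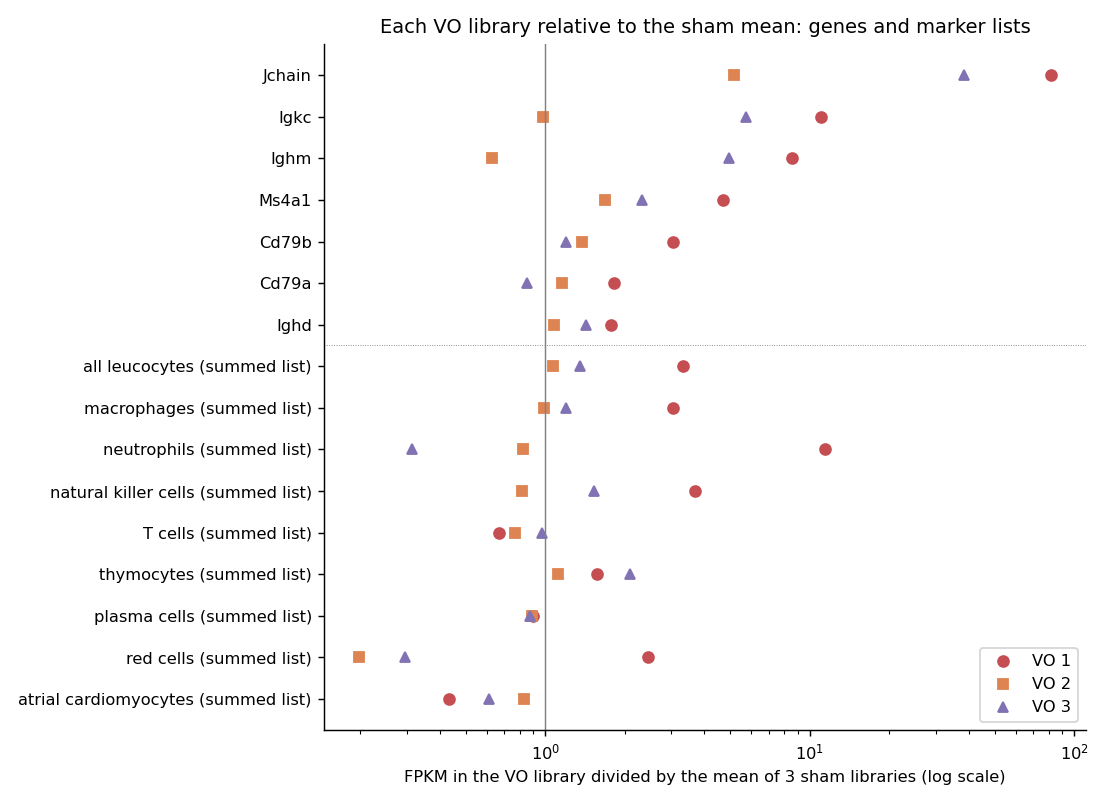
Level of the 7 genes and summed level of 9 marker lists in VO 1, VO 2 and VO 3 divided by the sham mean, on a log axis with a line at 1. Ighm is at 8.56, 0.631 and 4.94 times its sham mean and Igkc at 11.0, 0.982 and 5.72 times, whereas Cd79a is at 0.857 times in VO 3 and the pan-leucocyte list at 3.31 times in VO 1 and 1.35 in VO 3.

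The antibody genes and the receptor genes thus had different profiles over the VO libraries. Ighm per Cd79b, both in FPKM, was 2.74, 2.02 and 2.70 in sham 1 to 3, and 6.97, 1.13 and 10.2 in VO 1 to 3. Igkc per Cd79b was 2.82, 2.76 and 1.72 in sham, and 9.26, 1.81 and 12.1 in VO. Both ratios were highest in VO 3, although VO 1 had the highest level of every gene involved. Ms4a1 per Cd79b ranged from 0.0903 to 0.139 in sham and from 0.132 to 0.210 in VO, and Cd79a per Cd79b from 0.432 to 0.527 in sham and from 0.286 to 0.401 in VO.

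**Figure D3:**
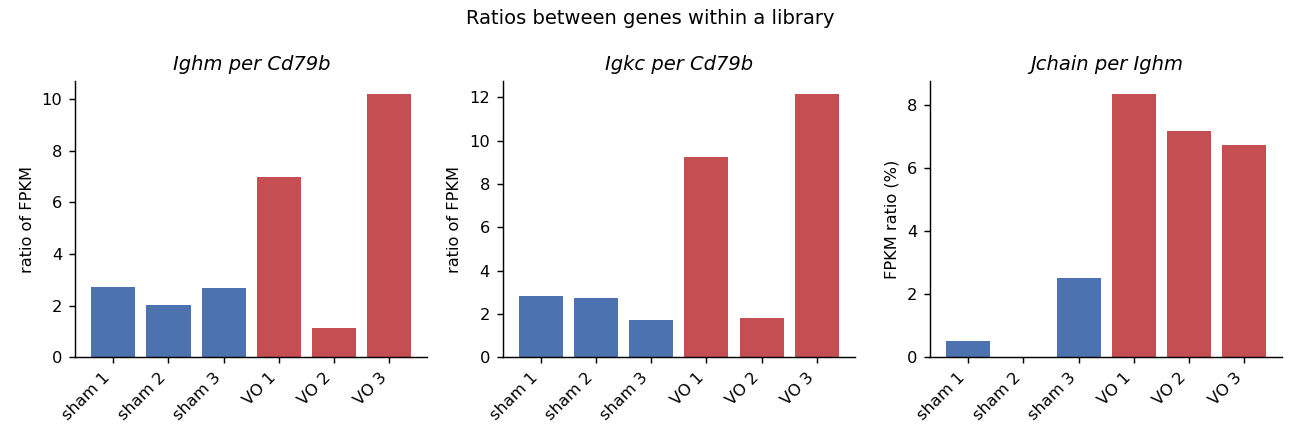
Ratios of FPKM between 2 genes, with 1 bar per library, for Ighm per Cd79b, Igkc per Cd79b and Jchain per Ighm (in percent). Ighm per Cd79b is 2.02 to 2.74 in sham and 6.97, 1.13 and 10.2 in VO 1 to 3, and Jchain per Ighm is 0% to 2.53% in sham and 6.75% to 8.36% in VO.

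The heavy chain class was mostly IgM in every library. Of the fragments on heavy chain constant regions, Ighm took 91.9%, 74.7% and 80.2% in sham 1 to 3, and 95.3%, 73.7% and 94.0% in VO 1 to 3. The IgG2c gene Ighg2c had 6, 18 and 14 fragments in sham and 9, 14 and 21 in VO, so it did not follow Ighm. Igha, Ighg2b and Ighg3, the genes of IgA, IgG2b and IgG3, had 9, 8 and 7 fragments in VO 1 and 0 in the other 5 libraries. Ighg1, Ighe and Iglc4 were at 0 in all 6, and a count of 0 allows up to 3 fragments in a library. The kappa share of light chain constant fragments was 87.8%, 87.5% and 66.7% in sham, and 91.0%, 78.6% and 95.6% in VO, with exact binomial 95% intervals from 44.7% to 84.4% in sham 3 and 91.8% to 98.0% in VO 3. Igkc had 16 to 43 fragments in the sham libraries and 33 in VO 2, which leaves their shares poorly determined.

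The V segments followed the constant regions and differed between VO 1 and VO 3. The table lists 348 V segments, 216 of them annotated as functional V genes and the rest mostly as pseudogenes. Together they held 24, 15 and 14 fragments in sham 1 to 3, and 260, 9 and 134 in VO 1 to 3. In VO 1, 46 segments were above 0, compared with 19 in VO 3, 7 in VO 2 and 6 to 16 in sham.

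In VO 3 a single segment took most of the fragments of each chain. The heavy chain segment Ighv2-9-1, shown above, had 24 of 41 heavy chain V fragments (58.5%, exact binomial 95% interval 42.1% to 73.7%) and 0 in all other libraries. The kappa segment Igkv16-104 had 55 of 88 (62.5%, 51.5% to 72.6%), also with 0 in all other libraries, and Igkv1-110 had 21 of the rest. No molecular identifiers were described for these libraries, so PCR copies of 1 molecule may be among these fragments.

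In VO 1 the fragments were spread over more segments. Ighv3-6 led with 24 of 107 heavy chain V fragments (22.4%, 14.9% to 31.5%), followed by Ighv8-8 with 17. Igkv8-30 had 22 of 108 kappa fragments (20.4%, 13.2% to 29.2%). The lambda segments Iglv1 and Iglv2 had 26 and 16 fragments in VO 1, against at most 5 and 1 in any other library, and Iglv3 at most 3 in any library.

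The leading segments of both libraries were mostly different. With at least 3 fragments counted as present, VO 1 had 9 of the 185 listed heavy chain segments and VO 3 had 2, and they shared 0. Sets this small out of 185 would seldom overlap in any case, so the 0 says little. Below that cutoff some segments were in both, among them Ighv3-6 with 24 fragments in VO 1 and 1 in VO 3. Ighv2-6-8 had 7 and 1, and Ighv14-3 had 2 and 2. Of the 160 listed kappa segments, 10 were present in VO 1 and 4 in VO 3. Of these, 2 were in both, Igkv1-110 and 1 other, which is 20.0% of the segments of VO 1 and 50.0% of those of VO 3. Whether this overlap differs from that of random sets of the same size was not tested. In sham and VO 2, heavy chain segments held 1 or 2 fragments per library, too few to compare.

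**Figure D4:**
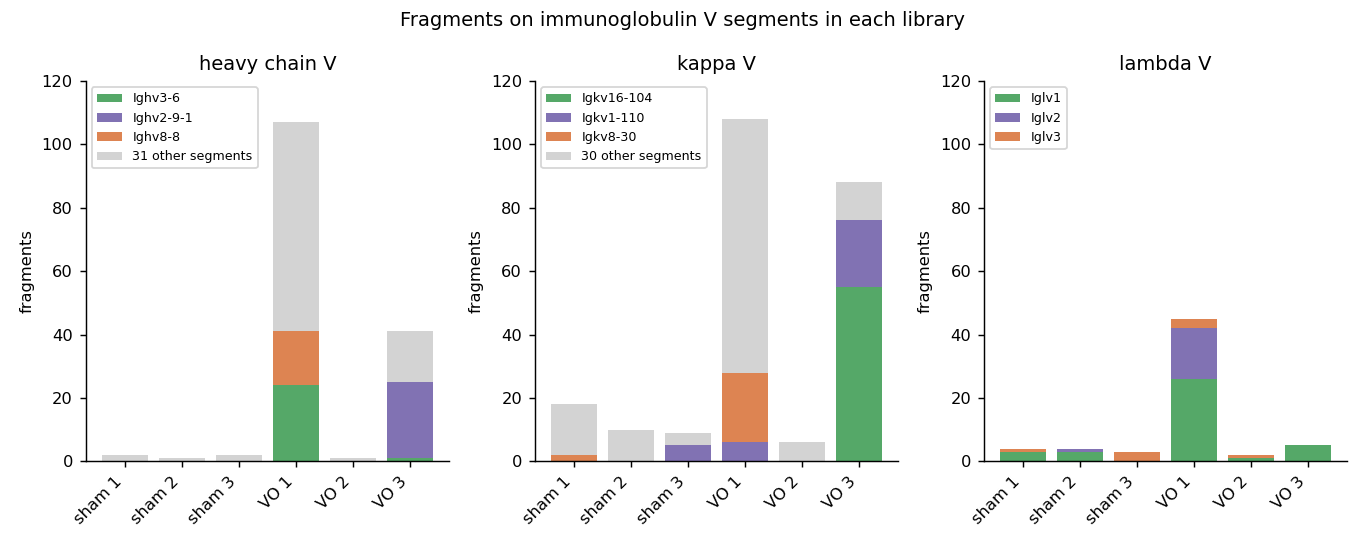
Fragments on heavy chain, kappa and lambda V segments in each library, stacked, with the 3 leading segments of each chain in colour and the rest in grey. VO 1 holds 260 fragments over 46 segments and VO 3 holds 134 over 19, of which Igkv16-104 has 55 and Ighv2-9-1 has 24.

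Of the other genes of B cells, 78 in 7 lists (coreceptors, receptor signalling, transcription factors, homing and survival, precursor cells, plasma cells and other constant regions), 24 had a mean of at least 1 FPKM and could be tested for VO against sham. In these, 4 had an unadjusted p-value under 0.05 with a higher level in VO and 2 with a lower level, and 0 had an adjusted p under 0.05 (limma, Benjamini-Hochberg, lowest adjusted p = 0.404, and also 0 with voom on recovered fragments). Of all 12627 genes tested, 3.89% were higher and 8.08% lower at an unadjusted p under 0.05, and 0.0% and 0.00792% at an adjusted one. This split depended on the scaling, since TPM gave 1085 higher and 486 lower genes in place of 491 and 1020, and 8 and 0 among the 24. The 24 genes had a median log2 difference of 0.36, against -0.01 over all genes tested, and 19 were above 0. Without VO 1 the median was 0.20. The count of higher genes was 1 without sham 1, 1 without sham 2, 3 without VO 1 and 8 without VO 2, and that of lower genes was 0 or 1 without any 1 library.

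Among the coreceptors, which set the threshold of the B cell receptor, 0 of 3 tested genes passed in either direction. The 12 genes of the list summed to 3.73, 1.32 and 1.46 times the sham mean in VO 1 to 3. Cd72 had 1.95 to 2.37 FPKM in sham and 7.34, 2.72 and 2.67 in VO, and the tetraspanin gene Cd37 had 0.906 to 0.967 in sham, 3.29 in VO 1 and at least 1.09 in the other VO libraries. In both, all VO libraries were above sham, with VO 1 far above the others. The inhibitory Fc receptor gene Fcgr2b, which macrophages also express, had 0.842 to 0.859 FPKM in sham and 3.26, 0.837 and 1.75 in VO.

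Among the receptor signalling genes, 2 of 7 tested were higher at an unadjusted p under 0.05 and 0 were lower, and the sum of the list was 2.02, 1.10 and 1.10 times the sham mean in VO 1 to 3. Plcg2, a phospholipase of B and myeloid cells, had 1.67, 2.07 and 1.83 FPKM in sham and 3.98, 2.57 and 2.53 in VO, a log2 difference of 0.65 (limma, adjusted p = 0.404, standard error 0.21). The adaptor gene Pik3ap1 had 2.65, 1.95 and 3.19 FPKM in sham and 11.0, 3.59 and 4.05 in VO, a log2 difference of 1.06 (standard error 0.42, adjusted p = 0.410). Neither passed the adjusted threshold, although all VO libraries lay above all sham libraries in both. The kinase genes Lyn and Syk, also active in myeloid cells, had 22.0 and 7.17 FPKM in VO 1 against at most 11.0 and 4.78 in sham, and the adaptor gene Dapp1 had 7.15 against at most 6.33. In VO 2 and VO 3, Lyn had 10.3 and 11.9, Syk 5.92 and 4.88, and Dapp1 6.05 and 4.70. Lyn in VO 2 and Dapp1 in VO 3 were below every sham library. Of the 7 tested genes 6 were above 0 on the log2 scale, and the kinase gene Blk was at -0.35 (limma, adjusted p = 0.621, standard error 0.33). Blk had 0.882, 1.81 and 1.68 FPKM in sham and 0.899, 1.00 and 1.35 in VO, within the sham range.

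Of the 5 transcription factor genes tested, 1 was higher at an unadjusted p under 0.05, and the list summed to 1.58, 1.16 and 1.21 times the sham mean in VO 1 to 3. Bcl6, a repressor of germinal centre B cells, had 2.98, 2.69 and 3.76 FPKM in sham and 3.80, 4.67 and 4.14 in VO, a log2 difference of 0.42 (limma, adjusted p = 0.410, standard error 0.16). It was highest in VO 2, the library with low immunoglobulin levels. The most abundant of the rest, Tcf3, Ebf1 and Irf8, are active in other cells of the tissue too and reached 10.4 FPKM in VO 1, 5.26 in VO 3 and 3.45 in VO 1. Their highest sham values were 8.92, 4.27 and 2.05. Tcf3 in VO 3 (7.63), Ebf1 in VO 2 (3.82) and Irf8 in VO 2 and VO 3 (2.01 and 1.83) lay within the sham range. Pax5, which defines the lineage, was at 0.0197 to 0.0944 FPKM in sham and 0.218, 0.0485 and 0.0618 in VO.

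Among 4 tested genes of homing and survival, 0 passed in either direction, and the sum of the 16 listed was 8.99, 0.976 and 1.80 times the sham mean in VO 1 to 3, with Cxcl13 alone giving 103.6 of 125.2 FPKM in VO 1. Cxcl13, the chemokine that draws B cells into follicles, had 0.615, 0.605 and 0.160 FPKM in sham and 103.6, 0.693 and 2.11 in VO. All VO libraries were above all sham libraries, but VO 2 only just, whereas VO 1 was at 225 times and VO 3 at 4.60 times the sham mean. The log2 difference of 3.48 came with a standard error of 1.66 (limma, adjusted p = 0.425). Ccl21a, a chemokine of lymphoid tissue, was highest in VO 3 at 3.33 FPKM, with 0.274 in VO 1, 0.153 in sham 3 and 0 in the other libraries. Cxcl12, Cxcr4 and Tnfsf13b, the gene of the survival factor BAFF, had at most 7.16, 4.94 and 1.11 FPKM in sham and 9.92, 5.75 and 2.52 in the highest VO library. That library was VO 3 for Cxcl12 and Cxcr4 and VO 1 for Tnfsf13b, which had 1.13 in VO 2 and 0.983 in VO 3.

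The genes of antibody secretion differed among themselves. Their list summed to 0.901, 0.890 and 0.874 times the sham mean in VO 1 to 3, a sum made up mostly of Xbp1. Of 5 tested plasma cell genes, 1 was higher and 2 were lower at an unadjusted p under 0.05. Sdc1, which encodes the plasma cell marker syndecan-1 and is also made by other cells, had 5.35, 5.56 and 6.00 FPKM in sham and 7.47, 6.47 and 6.43 in VO, a log2 difference of 0.26 (limma, adjusted p = 0.414, standard error 0.11). Xbp1, a transcription factor of secretory cells at large, had 59.9, 56.4 and 54.1 FPKM in sham and 47.4, 48.2 and 48.9 in VO, a log2 difference of -0.24 (standard error 0.10, adjusted p = 0.414), which was -0.10 with TPM and -0.06 with quantile normalization. The kinase gene Pim2 had a log2 difference of -0.57 (standard error 0.23, adjusted p = 0.414), with 1.47 to 1.80 FPKM in sham and 0.870 to 1.28 in VO.

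Mzb1, a chaperone of IgM assembly, did not follow Ighm, at 3.69, 4.23 and 3.60 FPKM in sham and 3.65, 4.54 and 2.55 in VO. Fkbp11, a foldase gene of secretory cells, had 2.27 to 2.59 FPKM in sham and 1.47, 2.36 and 1.98 in VO. A pair of regulators of plasma cell differentiation were below the filter, and both were higher in VO 1 and VO 3 than in every sham library. Irf4 had 0.262 to 0.576 FPKM in sham and 0.955, 0.575 and 1.91 in VO, and Prdm1 had 0.426 to 0.588 in sham and 1.26, 0.528 and 0.861 in VO. Slamf7, a surface receptor of plasma cells and of other leucocytes, was also above every sham library in VO 1 and VO 3. It had 0.281 to 0.389 FPKM in sham and 1.54, 0.188 and 0.531 in VO. Derl3 and Tnfrsf17 of the plasma cell list, also below the filter, did not share this. Derl3 had 0.349 to 0.370 in sham and 0.277, 0.215 and 0.305 in VO. Tnfrsf17, on at most 3 fragments per library, had 0 to 0.142 in sham and 0.135, 0.226 and 0.149 in VO.

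Of the precursor B cell list, 0 of 7 genes passed the filter, and their sum was 1.72, 0.0144 and 2.26 times the sham mean in VO 1 to 3. Vpreb1, part of the surrogate light chain, was highest in VO 3, at 0.355 FPKM on 7 fragments, against 0.0512 to 0.107 in sham. Vpreb3 was highest in sham 1, at 0.898. The recombinase gene Rag1 was at 0.259 in VO 1 and 0.322 in VO 3, against 0.0292 to 0.202 in sham, and Dntt, which adds bases at V segment joints, was at 0.600 in VO 3 and 0 in VO 1 and VO 2. Both genes are also used by developing T cells and stand in the thymocyte list too. Themis and Ptcra, genes of the T lineage, were also highest in VO 3, at 0.0729 and 0.0948 FPKM on 14 and 2 fragments. Cd8b1 and Rag2 were not, with 0.451 and 0.0355 in VO 3 against 0.509 and 0.0508 in sham 2. Arpp21, at 0.317 in VO 3, was below every sham library. The genes specific to precursor B cells differed, since Vpreb1 was highest in VO 3 and Vpreb3 was lower there (0.142) than in sham 1 and sham 3. Igll1, of the surrogate light chain, was above 0 only in VO 1 (0.0509, on 2 fragments). The part of thymocytes in these values was not tested. The remaining constant region genes summed to 3.94, 1.29 and 1.53 times the sham mean. Iglc1, the most abundant lambda gene among them, had 3.03 FPKM in VO 1 and 0.804 in VO 3 against at most 0.425 in sham, and Iglc2 and Iglc3 were below 1 in every library.

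**Figure D5:**
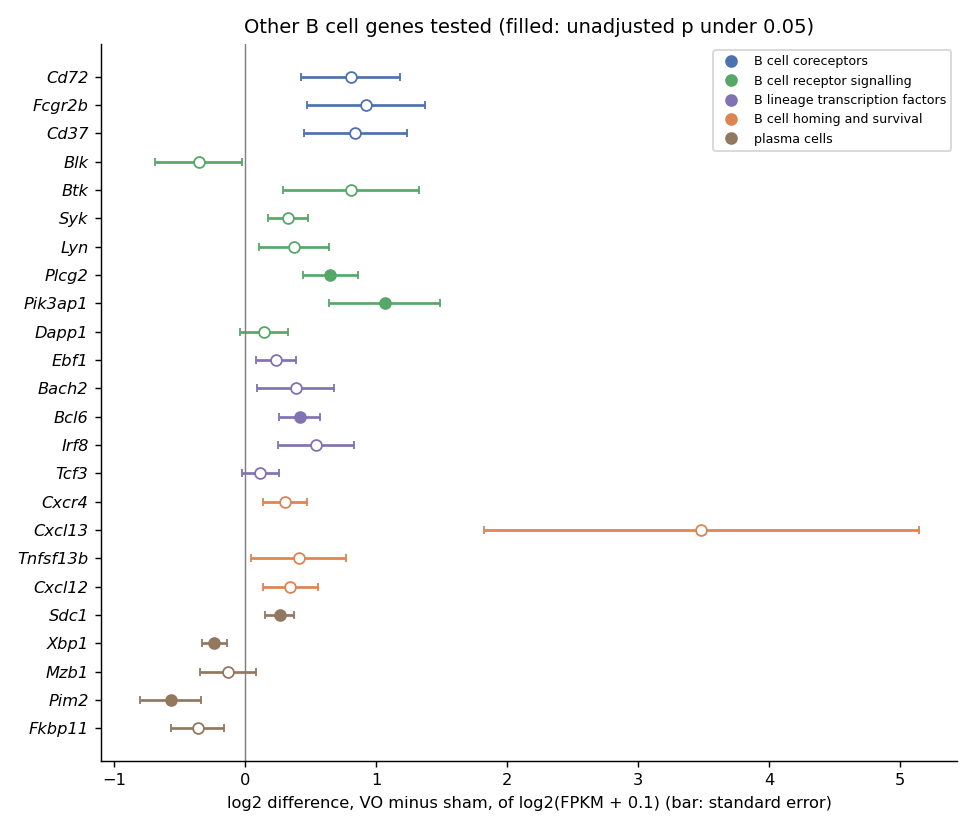
Log2 difference between VO and sham (log2 of FPKM + 0.1) for the 24 other B cell genes with a mean of at least 1 FPKM, with bars of 1 standard error, colours for the lists and filled points for an unadjusted p under 0.05 (limma). Of the 24 genes, 19 lie above 0. Blk, Xbp1, Mzb1, Fkbp11 and Pim2 lie below 0, at -0.35, -0.24, -0.13, -0.36 and -0.57.

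Several marker lists of other cells were highest in VO 1, as were 26.2% of all genes with a mean of at least 0.1 FPKM. The summed level of the macrophage list was 3.05 times the sham mean in VO 1, 0.988 in VO 2 and 1.20 in VO 3, with all 10 genes highest in VO 1, among them Lyz2, C1qb, C1qa and Csf1r. The neutrophil list (S100a9, S100a8, Csf3r, Ngp and 5 more) had a summed level of 1.26 to 12.6 FPKM in sham and 77.6, 5.58 and 2.13 in VO, with 9 of 9 genes highest in VO 1. Red cell genes (Hbb-bs, Hba-a1, Hba-a2, Hbb-bt and 3 more), which mark blood in the tissue, summed to 6975, 2384 and 1199 FPKM in sham 1 to 3 and 8589, 696 and 1035 in VO 1 to 3, so that sham 1 and VO 1 were both high. The neutrophil sum of VO 3 lay within the range of sham, and its red cell sum just below that range. The cycling cell list (Rrm2, Ccnb2, Mki67, Top2a and 4 more) was at 3.62 times the sham mean in VO 1 and 1.03 in VO 3. The part of blood, macrophages and cycling cells in the VO 1 values was not tested.

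The other lymphocyte lists differed among themselves. Of 15 T cell genes, 12 were highest in VO 1, against 26.2% of all genes with a mean of at least 0.1 FPKM. The list sum, however, was 0.670, 0.771 and 0.974 times the sham mean in VO 1 to 3. That sum rested on Trac, the constant region of the T cell receptor alpha chain, which had 29.1, 16.6 and 15.0 FPKM in sham and 6.84, 15.2 and 17.7 in VO, while Trbc1, Trbc2 and Cd28 did not pass 1.35 in any library. The natural killer list (Gzma, Nkg7, Ncr1, Klrb1c and 3 more) was at 3.69, 0.819 and 1.53 times the sham mean. The thymocyte list was at 1.57, 1.12 and 2.10 times. Its most abundant gene, Cd1d1, which other cells make as well, had 7.90 FPKM in VO 3 against 2.41 to 2.87 in sham. Satb1 and Tcf7 of that list had 1.42 and 0.764 FPKM in VO 3, within their sham ranges of 1.24 to 1.75 and 0.318 to 0.772. Arpp21 had 0.317 in VO 3, below its sham range of 0.461 to 0.550. The lymphoid stroma list was at 16.4 times the sham mean in VO 1, with Cxcl13 in the sum, and at 1.61 times in VO 3, while Fcamr had 2.83 to 3.92 FPKM in sham and 2.02 to 2.12 in VO, and Chst4 had 2.98 in VO 3, which is above sham 1 and sham 3 and below sham 2 (3.71). The atrial cardiomyocyte list (Myl7, Nppa, Myh6, Bmp10 and 5 more) was at 0.434, 0.834 and 0.614 times the sham mean in VO 1 to 3, and of the ventricular genes Myl3 had 117 to 246 FPKM in sham and 83.8 to 121 in VO, and Myl2 2.02 to 60.4 and 1.54 to 20.6. The part of these lists in the immunoglobulin values was not tested.

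The genes with a mean of at least 1 FPKM whose profile over the 6 libraries was most like the median profile of the 7 genes included Dock8, Lox, Pak1, Serpina3n, Lcp1, Eln, Ctxn1, Nusap1 and Tnc. The measure was the root mean square difference of centred log2 values, which ran from 0.164 for Dock8 to 0.210 for Tnc. Dock8 had 2.26, 2.59 and 1.94 FPKM in sham and 6.03, 2.98 and 3.81 in VO, and the elastin gene Eln had 62.8, 80.8 and 62.7 in sham and 230.7, 88.4 and 96.5 in VO. Of the 7 genes themselves, Ms4a1 was nearest to their median profile (0.0939) and Jchain farthest from it (1.20), with Igkc at 0.936 and Ighm at 0.882.

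The RefSeq promoter table used here (build GRCm38.p6) was matched for only 2 of the 7 genes, the receptor gene Cd79a and the secretion gene Jchain, and both are shown. Whether their motifs bear on their levels in the VO libraries was not tested. Each window runs from 250 bases before to 50 bases after the start, with motif matches in capitals. Jchain lies at chr5:88527848-88528147 on the minus strand and Cd79a at chr7:24897247-24897546 on the plus strand.
Jchain: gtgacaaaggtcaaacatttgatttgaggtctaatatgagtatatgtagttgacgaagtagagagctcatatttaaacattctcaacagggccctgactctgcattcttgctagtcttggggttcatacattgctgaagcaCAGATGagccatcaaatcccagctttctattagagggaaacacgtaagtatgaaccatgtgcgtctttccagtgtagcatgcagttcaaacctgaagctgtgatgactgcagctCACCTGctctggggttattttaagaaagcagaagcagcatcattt
Cd79a: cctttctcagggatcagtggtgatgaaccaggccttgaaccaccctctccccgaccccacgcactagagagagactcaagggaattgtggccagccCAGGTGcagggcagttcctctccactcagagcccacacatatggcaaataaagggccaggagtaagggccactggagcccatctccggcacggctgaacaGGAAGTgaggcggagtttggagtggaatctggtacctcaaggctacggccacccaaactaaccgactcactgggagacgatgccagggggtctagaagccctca
On both strands, the E-box CAGNTG, which E2A can bind, matched once in Cd79a (CAGGTG at -154) and at a pair of places in Jchain (CAGATG at -109 and CACCTG at 5), and 51.4% of the 32851 promoters of the same length hold it. The ETS core GGAAGT matched once in Cd79a, at -54, and is in 23.8% of promoters. The octamer ATGCAAAT, which is in 1.74% of promoters, had 0 matches in both windows. The motifs did not overlap each other.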

How the data were processed

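RNA-seq was measured in 3 sham and 3 VO libraries of the RA. Per the paper's methods and the submitters' processing notes, the authors aligned 150-bp paired-end reads with HISAT2 (2.0.5), counted them per gene with featureCounts (1.5.0-p3) on GRCm38 (mm10), and deposited 1 table of FPKM values; the strand setting is not given in the sources used here. FPKM times gene length gave whole fragments for 100% of values within 0.01 fragments, from which fragments per gene were recovered. An incomplete last row was left out, leaving 54093 genes.

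The main fit was limma (3.58.1, R 4.3.3) with a variance trend on log2(FPKM + 0.1), for genes with a mean of at least 1 FPKM (12627), after median-of-ratios scaling, with Benjamini-Hochberg adjustment. A fold change on this scale understates that of low genes. Member standard errors came from the same fit with a minimum mean of 0.1 FPKM (19053 genes). Intervals on fragments are exact 95% intervals (binomial, or conditional binomial for ratios; scipy 1.17.1). V segments and promoters were compared in Python (3.11.15).

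The 7 genes, the gene lists and the rules were chosen with earlier results of these data known. Named were the 7 genes, up to 4 of the most abundant genes of each list, every B cell list gene with an unadjusted p under 0.05, the 10 nearest profiles and the 3 most abundant V segments per chain. Blk, Pax5, Irf4, Prdm1, Slamf7, Themis, Ptcra, Igll1 and the remaining constant region genes were named after their values were seen. Genes that fall under the rule but are not named are not reported here. Same-numbered sham and VO libraries were not taken as pairs: the correlations of their deviations were -0.11, 0.01 and -0.03. Alternatives were the pseudocount, the filter on low values, TPM, quantile normalization, no trend, robust variance, voom on recovered fragments, a replicate block and leaving out each library. The script was tested on simulated data.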

Additional observations from a re-analysis of the deposited data

How the results depend on the processing

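The log2 difference of each of the 7 genes was above 0 with either other pseudocount, TPM, quantile normalization, voom and each library left out, although that of Cd79a was 0.04 without VO 1 and 0.05 without sham 3. Their median log2 difference of 1.04 ranged from 0.55 with a pseudocount of 1 to 1.48 with voom, and from 0.69 to 1.30 with 1 library left out. Jchain, at 2.96, moved to 1.05 with a pseudocount of 1 and to 4.78 with one of 0.01, since its sham level is close to 0. TPM moved the median of all genes from -0.01 to 0.13 (log2).

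Among the other B cell genes, 0 had an adjusted p under 0.05 in limma under any alternative. The 4 higher and 2 lower genes at an unadjusted p under 0.05 became 0 and 1 with a mean of at least 5 FPKM (8 genes tested), 8 and 0 with TPM, and 2 and 1 without the trend; the lower count was 1 with quantile normalization and 0 with voom. With 1 library left out, 1 to 8 were higher and 0 to 1 lower, and the median log2 difference was 0.20 to 0.47. Over all genes, the 491 higher became 229 with a mean of at least 5 FPKM, 840 without a filter, 1085 with TPM and 1092 with voom, and the 1020 lower became 486 with TPM and 598 with voom; with 1 library left out they were 281 to 784 and 574 to 1214. The replicate block gave 324 higher and 608 lower genes over all genes, and 4 and 0 among the other B cell genes, where equal numbers were not treated as pairing libraries.

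With at least 3 fragments, the V segments present fell from 16, 8 and 6 to 2, 3 and 2 in sham 1 to 3, and from 46, 7 and 19 to 22, 1 and 7 in VO 1 to 3. The depth limits these counts, as most segments present in sham held 1 or 2 fragments.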
